A study of Mus musculus with 12 samples.

Results

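The genes described here are the Atf4 stress response genes and the genes of the unfolded protein response, in primary cortical neurons of the mouse. They were chosen by symbol from a list of 41 names, of which 40 matched a gene of the deposited table of 55901 genes. The remaining name, Vldlr-none, is not a gene symbol in the table. On the Atf4 side stood 30 genes and on the side of the endoplasmic reticulum (ER) stood 10. A mean of at least 0.5 FPKM (fragment counts scaled by gene length and by the depth of the library) over the libraries was required for a test, and 39 members passed it, 29 on the Atf4 side and all 10 on the ER side. Fgf21 did not pass.

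The cells were neurons from the cortex of newborn C57BL/6J mice, held in culture for 7 days, with arabinosylcytosine added early to limit glial cells. Control cultures were neither scratched nor given TGF-β1, Trauma cultures were scratched and collected after 24 h, and Trauma+TGF-β1 cultures were scratched and kept with TGF-β1 at 10 ng/mL for 24 h, with 4 libraries in each group. No group received TGF-β1 without the scratch. The sources used here do not say whether the libraries of a group came from separate cultures or litters, so that the tests measure the spread between these libraries, which may be technical.

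Atf4 is a transcription factor whose protein is made when one of several kinases phosphorylates the translation factor eIF2α. Each kinase answers a different stress, such as unfolded proteins in the ER or a shortage of amino acids. Atf4 then switches on genes for the synthesis and import of amino acids and, when stress lasts, the factor Chop (gene Ddit3). Unfolded proteins in the ER also activate the sensors Ire1 and Atf6, which raise the chaperones that fold secreted proteins and the machinery that removes proteins that fail to fold. Neurons are known to use the eIF2α pathway both under injury and in synaptic plasticity. Much of this control acts on translation and on protein cleavage, which RNA levels do not measure.

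Promoter sequences from RefSeq (GRCm38.p6, 250 bases before to 50 bases after each gene start) were matched to 36 of the 40 members, and for Slc7a5, Slc7a3, Ppp1r15b and Atf6 no sequence was matched. They are shown because both arms of the response act through short elements that can be read in them. The C/EBP-ATF response element bound by Atf4 with its partners was searched as TGATGNAA, and the ER stress response element bound by Atf6 with NF-Y as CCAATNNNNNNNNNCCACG, each on both strands. The first was found in 7 members (Chac1, Trib3, Asns, Fgf21, Nupr1, Herpud1 and Pycr1) and in 3.97% of all 32851 promoters. The second was found in 3 members (Hspa5, Calr and Canx) and in 0.119% of all promoters. The matched letters are in capitals below, each sequence reads 5′ to 3′ on the strand of its gene, and a match describes the letters and not a bound site.
Chac1: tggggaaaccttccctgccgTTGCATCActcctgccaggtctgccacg
Asns: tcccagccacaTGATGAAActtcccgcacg
Pycr1: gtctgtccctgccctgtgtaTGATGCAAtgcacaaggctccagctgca
Herpud1: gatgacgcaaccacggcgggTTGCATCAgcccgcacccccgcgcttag
Hspa5: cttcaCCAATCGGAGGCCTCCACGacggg
Calr: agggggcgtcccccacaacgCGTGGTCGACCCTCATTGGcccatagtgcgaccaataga
Canx: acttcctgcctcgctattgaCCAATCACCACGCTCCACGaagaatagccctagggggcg

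The Chac1 sequence lies at chr2:119351029-119351076 (plus strand), with its element from base -193 to base -186 counted from the gene start at 0. That of Pycr1 lies at chr11:120643824-120643871 (minus strand), with the element from base -103 to base -96, and that of Herpud1 at chr8:94386297-94386344 (plus strand), with the element from base -112 to base -105. The Asns sequence, chr6:7693214-7693243 (minus strand), holds the element from base -23 to base -16 before the RefSeq start and falls in an exon of a longer Asns transcript in the GENCODE annotation. On the ER side, the Hspa5 element runs from base -65 to base -47 in chr2:34772020-34772048 (plus strand), also in an exon of a longer annotated transcript. The Calr sequence is chr8:84847055-84847113 (minus strand) with its element from base -162 to base -144, and the Canx sequence is chr11:50325780-50325838 (minus strand) with its element from base -145 to base -127. The Chac1, Pycr1, Calr and Canx sequences overlap no annotated gene. Of the carriers of the first element, Chac1 was called lower in Trauma+TGF-β1, and Asns, Pycr1, Herpud1, Trib3 and Nupr1 were called in no comparison. Of the carriers of the second, Hspa5 was called higher in Trauma+TGF-β1 than in Control, and Calr and Canx were not called.

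**Figure D1:**
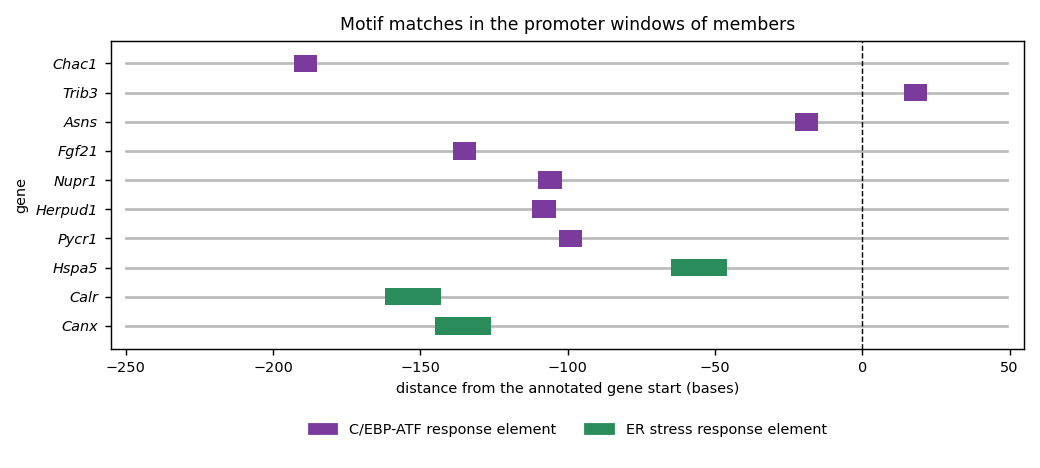
Positions of the matched elements in the promoter windows of 10 members. The x axis is the distance in bases from the annotated gene start (dashed line), each grey line is the window of a gene, and the coloured boxes are the C/EBP-ATF response element (7 genes) and the ER stress response element (3 genes). All boxes except that of Trib3, at base 14, stand before the gene start.

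The libraries held 15052486 to 17381671 reads on genes. Control 1 stood apart from the other Control libraries on the second principal component over all genes tested (59.0 against 3.81 to 8.70) and had 2.97% mitochondrial reads against 2.12% to 2.36%. The Trauma libraries had 2.17% to 2.30% and the Trauma+TGF-β1 libraries 2.69% to 3.23%, and the part of this share in the differences of that group was not tested. Control 1 also had the lowest Cebpb, Atf5 and Sdf2l1 of its group and the highest Eif2ak2, Herpud1, Edem1 and Canx, among others. Values without it are given for those genes. The summed FPKM of 7 neuronal markers ranged over 1322 to 1392 (Control), 1179.5 to 1259.5 (Trauma) and 1105 to 1150.03 (Trauma+TGF-β1), and those of 6 astrocyte markers over 128 to 139, 171 to 213 and 195 to 214. Tubb3 made up 64.7% to 71.8% of the neuronal sum. In the main fit the neuronal markers went both ways. In Trauma against Control 1 was higher (Gad1) and 2 lower, beside 3.5% and 2.32% of all genes. In Trauma+TGF-β1 against Trauma 2 were higher (Map2 and Snap25) and 2 lower (Tubb3 and Slc17a7), beside 4.64% and 7.63%. Against Control 2 were higher and 4 lower, beside 6.85% and 9.46%. After GC correction 1 was higher and 3 lower in Trauma against Control. For Trauma+TGF-β1 it left 0 calls against Trauma, and 0 higher and 3 lower against Control. Leaving out Trauma+TGF-β1 2 also took the calls against Trauma to 0. Of the astrocyte markers, 5 of 6 were called higher in Trauma than in Control, beside 3.5% of all genes. With TGF-β1 they split relative to Trauma. Aqp4 was higher (log2 fold change 0.32, limma adjusted p = 0.0178) and Aldh1l1 lower (-0.50, limma adjusted p = 0.0043). The call of Aldh1l1 was kept after GC correction and without each library. That of Aqp4 was lost after GC correction. Relative to Control, 4 were higher with TGF-β1 and 0 lower, beside 6.85% and 9.46% of all genes. After GC correction 3 were higher, with Slc1a2 lost (log2 fold change 0.12, limma adjusted p = 0.152). The call of Slc1a2 was also lost without any 1 of 5 libraries. Gfap was the largest part of the astrocyte sum in every library. In the same order of groups, microglial markers summed to 8.41 to 12.0, 14.1 to 14.9 and 10.9 to 14.5 FPKM and oligodendrocyte markers to 45.9 to 48.7, 56.9 to 64.1 and 56.2 to 62.7 FPKM. C1qa was the largest part of the microglial sum and Olig1 of the oligodendrocyte sum in every library. Olig1 and Mbp were called higher in Trauma than in Control, while Olig2 had 7.32 to 8.27 FPKM in Control and 6.82 to 7.42 FPKM in Trauma. Fibroblast markers stayed between 0.781 and 2.50 FPKM and endothelial markers between 0.159 and 0.354 FPKM. Astrocytes are rich in the serine synthesis enzymes Phgdh and Psat1, and the part of the marker differences in the results for the members was not tested. In such bulk samples fewer cells of a type and less RNA per cell cannot be told apart.

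By FPKM, the members spanned from Calr, with 134 to 148 FPKM over the libraries, to Fgf21, the gene of a stress hormone, which had 1 read in 1 Trauma library and in each of 2 Trauma+TGF-β1 libraries and 0 in the others. Atf4 was the second most abundant member (74.4 to 121 FPKM), followed by Canx (76.2 to 88.7), Slc7a5 (60.7 to 91.9), Asns (62.4 to 93.6) and Hspa5 (58.7 to 67.2). The ranges of Canx, Slc7a5 and Asns overlapped one another. At the low end stood Ern1 (0.967 to 1.80), Trib3 (0.844 to 1.80), Eif2ak2 (0.406 to 1.67) and Nupr1 (0.284 to 1.12), which rested on few reads (11 to 43 for Nupr1 and 28 to 65 for Trib3). The gene Ddit3 has 2 rows in the table, and the one without reads was set aside.

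Scratch injury was accompanied by lower RNA of Atf4, of 3 of 5 amino acid transporters and of a folate enzyme, and by higher Ppp1r15a. In Trauma against Control, 6 of the 29 Atf4-side members tested passed the threshold, 5 lower (Atf4, Mthfd2, Slc7a5, Slc7a1 and Slc7a3) and 1 higher (Ppp1r15a). Of the transporter calls, that of Slc7a1 was lost under 15 of 27 alternatives and that of Slc7a5 under 2, while that of Slc7a3 was kept. On the ER side 1 of 10 passed, Pdia4, which was higher. Over all 15016 genes tested, 5.82% were called in this comparison (3.5% higher and 2.32% lower). The median log2 fold change was -0.080 on the Atf4 side and 0.053 on the ER side, beside -0.0025 over all genes tested. Leaving out a library took the Atf4-side median to -0.12 (without Control 1) and -0.049 (without Trauma 4), and the ER-side median to 0.029 (without Control 4), 0.034 (without Trauma 3), 0.087 (without Trauma 4) and 0.089 (without Control 1). The ER-side call became 0 without any 1 of Control 2, Control 4 and the 4 Trauma libraries. Trauma+TGF-β1 against Trauma gave 5 calls of 29 on the Atf4 side, 4 lower (Atf5, Chac1, Phgdh and Ppp1r15a) and 1 higher (Slc38a2), and 1 of 10 on the ER side (Atf6, higher), where 12.3% of all genes were called (4.64% higher and 7.63% lower). Its medians were -0.0084 and 0.070, beside 0.0052 over all genes. The Atf4-side median was above 0 after GC correction (0.0015), after quantile normalization (0.026), without Trauma+TGF-β1 3 (0.027) and without Trauma 1 (0.028). The 5 Atf4-side calls became 1 without any 1 of Trauma+TGF-β1 2 and 4 and Trauma 1 and 2, 2 without Trauma 3, and 3 without any 1 of Control 2, Control 4 and Trauma 4. The single ER-side call became 0 without any 1 of the 4 Trauma+TGF-β1 libraries and Trauma 1, 2 and 4, 3 without Control 1 and 2 without Control 2.

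In Trauma+TGF-β1 against Control, 6 of 29 Atf4-side members were called, each of them lower (Atf4, Atf5, Chac1, Phgdh, Mthfd2 and Slc7a3), and 4 of 10 on the ER side, each of them higher (Hspa5, Atf6, Pdia4 and Edem1). The 4 ER-side calls became 2 without Control 3. Over all genes 16.3% were called, 6.85% higher and 9.46% lower. The medians were -0.14 and 0.11, beside 0.0031 over all genes. The 3 comparisons share their libraries in pairs and are therefore not independent of each other. Over the 3 comparisons 14 of the 39 tested members were called at least once, 10 on the Atf4 side and 4 on the ER side, and 25 in none. Genes called at least once were not counted over all genes, so that this number has no share beside it.

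**Figure D2:**
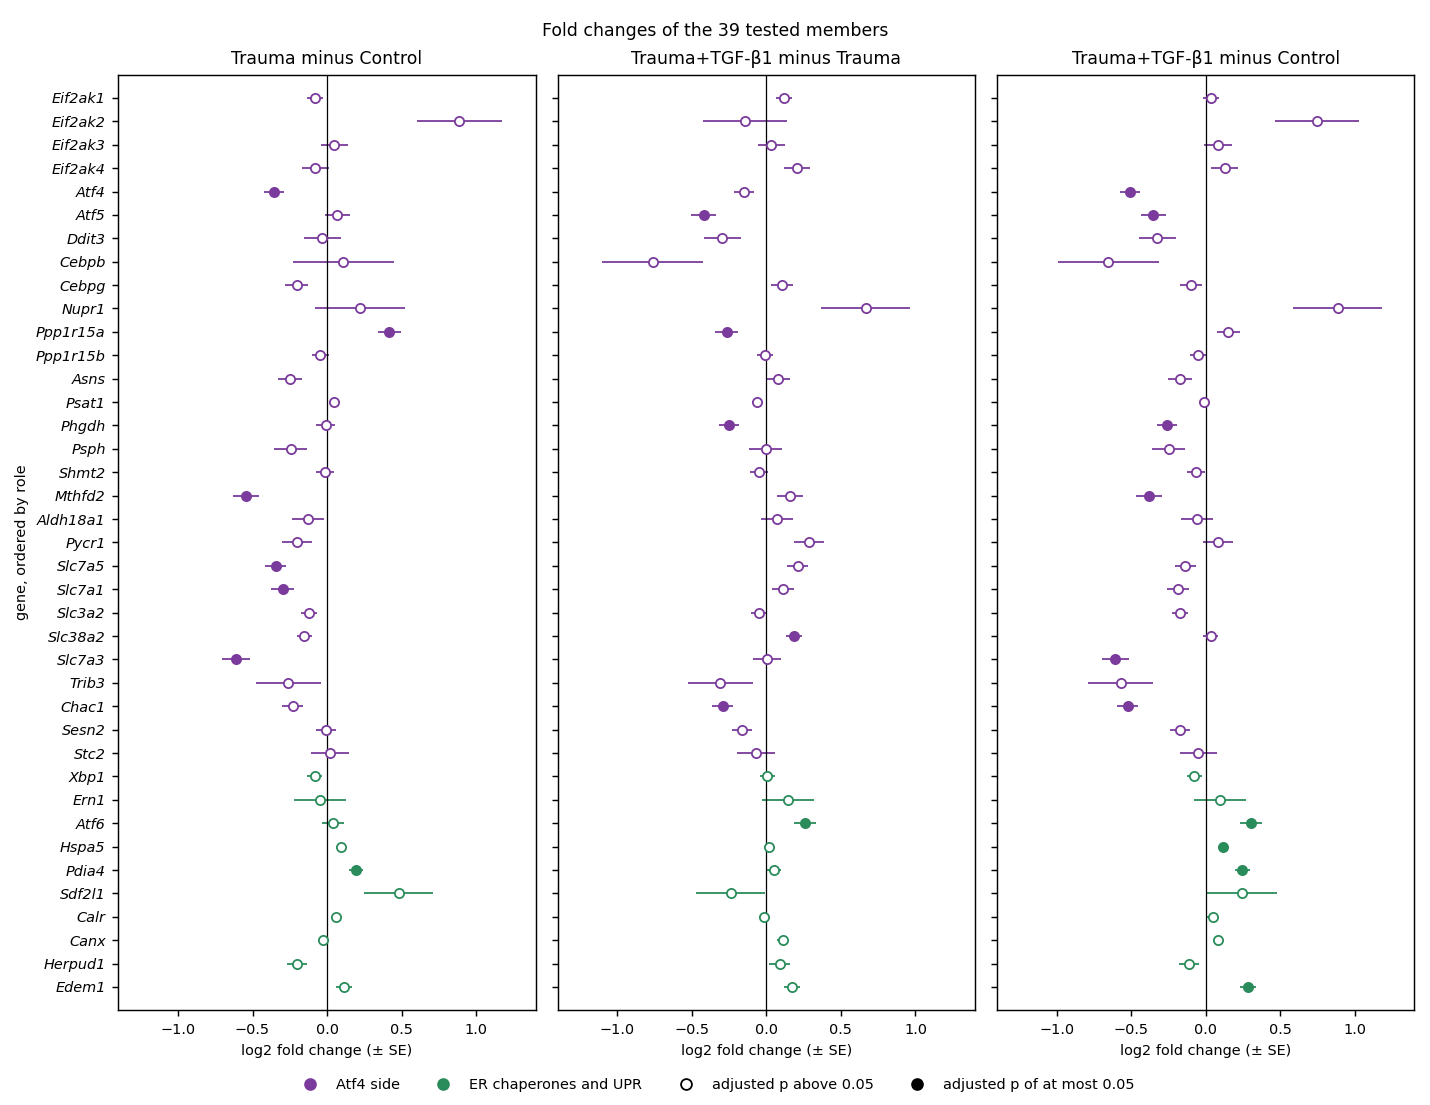
Log2 fold changes of the 39 tested members in the 3 comparisons, with standard errors as bars. The x axis is the log2 fold change, the y axis lists the genes by role, purple marks the Atf4 side and green the ER side, and filled points have a limma adjusted p of at most 0.05. In Trauma+TGF-β1 minus Control the 6 filled purple points lie below 0 and the 4 filled green points above 0.

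Fold changes between Trauma+TGF-β1 and the other groups moved with the GC content of genes. The rank correlation of fold change with GC content over 14699 genes was -0.47 against Trauma and -0.36 against Control, and 0.088 for Trauma against Control, given as a description since all genes share the same libraries. For single libraries, the deviation of each gene from its mean over all 12 libraries was correlated with GC content instead. This rank correlation was -0.15 to -0.43 in Trauma+TGF-β1, 0.18 to 0.25 in Trauma, -0.20 in Control 1 and 0.040 to 0.32 in the other Control libraries. Since that mean holds all groups, the value of a library depends on the other libraries. Median GC content was 51.2% on the Atf4 side, 48.8% on the ER side and 49.6% over all genes tested. Values after a loess correction of each library for GC content stand beside each call of a member that it ended, and the number of calls it left stands beside each further list that had any.

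The kinases that phosphorylate eIF2α did not pass the threshold in any comparison. Of the 4, the counts at an unadjusted p under 0.05 were 1 in Trauma against Control and 1 in each comparison of Trauma+TGF-β1 (first against Trauma, then against Control), and voom on the recovered reads called 1, 0 and 1 in the same order. Over all 15016 genes voom called 1152, 2554 and 2919. The unadjusted count was not made over all genes, so that of the kinases has no share beside it. Eif2ak3, or Perk, the kinase of the ER, had 4.41, 3.78, 3.55 and 4.31 FPKM in Control, 4.07, 4.24, 4.23 and 3.91 FPKM in Trauma and 4.09, 3.69, 4.21 and 4.90 FPKM in Trauma+TGF-β1. The groups overlapped, with log2 fold changes of 0.050, 0.034 and 0.083 in the order of the comparisons above. Eif2ak4, or Gcn2, which senses uncharged tRNA, had 3.47, 3.43, 3.92 and 4.37 FPKM in Control, 3.59, 3.43, 3.80 and 3.39 FPKM in Trauma and 3.63, 4.07, 4.37 and 4.37 FPKM in Trauma+TGF-β1. Its 3 log2 fold changes were -0.079, 0.21 and 0.13, again with overlapping groups. Eif2ak1, or Hri, which senses a lack of heme, had 17.0, 16.6, 14.9 and 17.0 FPKM in Control, 16.6, 15.3, 15.2 and 14.3 FPKM in Trauma and 16.3, 16.1, 16.8 and 17.4 FPKM in Trauma+TGF-β1, with log2 fold changes of -0.080, 0.12 and 0.038 and overlapping groups. On the other strand, exons of Gm43292 overlap 8.05% of the exon bases of Eif2ak3. Those of Aimp2 and Ankrd61 overlap 8.59% and 3.03% of the exon bases of Eif2ak1.

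Eif2ak2, or Pkr, the kinase that binds double-stranded RNA, had 1.46, 0.541, 0.759 and 0.406 FPKM in Control, 1.24, 1.51, 1.21 and 1.67 FPKM in Trauma and 1.43, 1.20, 1.20 and 1.20 FPKM in Trauma+TGF-β1. Control 1 lay within the range of the injured groups, while the other Control libraries lay below all of them. In Trauma against Control the difference did not pass (log2 fold change 0.89 ± 0.28 SE, limma adjusted p = 0.0964), nor in Trauma+TGF-β1 against Control (log2 fold change 0.75 ± 0.28 SE, limma adjusted p = 0.0945). Both passed with voom on the recovered reads (log2 fold changes of 0.99, limma adjusted p = 0.0128 and 0.83, limma adjusted p = 0.0233) and without Control 1, with log2 fold changes of 1.20, limma adjusted p = 0.00566 and 1.06, limma adjusted p = 0.00344. The gene rested on 32 to 152 reads per library.

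Atf4 fell with the scratch. It lies at chr15:80255184-80257541, plus strand (GRCm38) and had 118, 121, 116 and 117 FPKM in Control, 97.1, 98.2, 90.6 and 80.9 FPKM in Trauma and 90.8, 81.7, 83.2 and 74.4 FPKM in Trauma+TGF-β1. Each Trauma and each Trauma+TGF-β1 library lay below each Control library, while Trauma and Trauma+TGF-β1 overlapped. Atf4 fell by 22.0% in Trauma (log2 fold change -0.36 ± 0.066 SE, limma adjusted p = 0.00816) and fell by 29.6% in Trauma+TGF-β1 (log2 fold change -0.51 ± 0.066 SE, limma adjusted p = 0.000591), both against Control. The difference between Trauma+TGF-β1 and Trauma did not pass (log2 fold change -0.15 ± 0.066 SE, limma adjusted p = 0.157). Both calls were kept under every alternative setting and without each library.

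Atf5, a related factor that is also controlled through translation, was called in the 2 comparisons of Trauma+TGF-β1. It lies at chr7:44812256-44816658, minus strand and had 36.0, 48.3, 48.6 and 42.9 FPKM in Control, 46.2, 45.9, 44.5 and 45.4 FPKM in Trauma and 36.7, 32.1, 35.3 and 31.8 FPKM in Trauma+TGF-β1. The Trauma+TGF-β1 values were all under the Trauma values, and Control 1 lay among the Trauma+TGF-β1 libraries. Atf5 fell by 25.2% in Trauma+TGF-β1 against Trauma (log2 fold change -0.42 ± 0.084 SE, limma adjusted p = 0.0126), a call kept throughout, and fell by 21.6% against Control (log2 fold change -0.35 ± 0.084 SE, limma adjusted p = 0.0156). After GC correction both folds were smaller, at -0.20 (limma adjusted p = 0.0194) and -0.15 (limma adjusted p = 0.0272). Without Control 1 the log2 fold change against Control was -0.44 (limma adjusted p = 0.000534). The call against Control was lost without any 1 of 2 libraries (Control 2, Trauma+TGF-β1 2), with log2 fold changes from -0.32 to -0.30 and limma adjusted p from 0.0502 to 0.0507. Trauma against Control was not called (log2 fold change 0.069 ± 0.084 SE, limma adjusted p = 0.724, and -0.023, limma adjusted p = 0.881 without Control 1). Exons of Nup62 and Il4i1 on the other strand overlap 4.11% of the exon bases of Atf5, and the sources used here do not say whether reads were counted by strand.

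Ddit3, which encodes the factor Chop, had 9.37, 8.69, 9.24 and 8.33 FPKM in Control, 9.90, 9.23, 9.48 and 6.46 FPKM in Trauma and 7.05, 6.40, 8.26 and 6.53 FPKM in Trauma+TGF-β1. Trauma 4 was below the other Trauma libraries and within the range of Trauma+TGF-β1, whose libraries all lay below the Control libraries. No comparison passed (-0.031 ± 0.12, adjusted p = 0.931 for Trauma against Control, -0.29 ± 0.12, adjusted p = 0.133 for Trauma+TGF-β1 against Trauma and -0.32 ± 0.12, adjusted p = 0.0932 against Control, as log2 fold changes ± SE from limma). Without Trauma 4 the difference of Trauma+TGF-β1 from Trauma passed (log2 fold change -0.43, limma adjusted p = 0.0249), as did that from Control (-0.32, limma adjusted p = 0.0198). The difference from Control also passed after GC correction (log2 fold change -0.41, limma adjusted p = 0.0486). The exons of Mars on the other strand cover 3.97% of those of Ddit3.

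Among the other factors, Cebpg, a dimer partner of Atf4, had 5.37 to 5.99 FPKM over the Control libraries, 4.43 to 5.39 FPKM over the Trauma libraries and 4.81 to 5.71 FPKM with TGF-β1. Cebpb, the gene of another partner, had 2.16, 5.98, 6.64 and 4.83 FPKM in the Control libraries, with Control 1 lowest, 4.40 to 5.72 FPKM over the Trauma libraries and 1.62 to 4.37 FPKM with TGF-β1. Each Trauma+TGF-β1 library was below each Trauma library for Cebpb, but the difference did not pass (log2 fold change -0.76 ± 0.34 SE, limma adjusted p = 0.156). Against Control, Cebpb did not pass either (log2 fold change -0.65, limma adjusted p = 0.213), but passed without Control 1 (-0.997, limma adjusted p = 0.02). Its log2 fold change in Trauma against Control was 0.11, and -0.23 without Control 1 (limma adjusted p = 0.699). The gene has 20.7% of its exon bases in common with Tmem189 on the other strand. Nupr1, a small chromatin protein raised by stress, had 0.284 to 0.632 FPKM over the Control libraries, 0.337 to 0.581 FPKM over the Trauma libraries and 0.547 to 1.12 FPKM with TGF-β1, with no comparison called and a lowest limma adjusted p of 0.0647 against Control.

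Ppp1r15a encodes Gadd34, the inducible subunit that guides a phosphatase back to eIF2α. It was the one Atf4-side member called higher in Trauma. The gene (chr7:45522916-45526268, minus strand) had 5.62, 5.57, 5.80 and 5.35 FPKM in Control, 7.39, 6.95, 7.99 and 7.48 FPKM in Trauma and 5.36, 6.00, 7.03 and 6.38 FPKM in Trauma+TGF-β1. All Trauma libraries exceeded all Control libraries, and the Trauma+TGF-β1 libraries reached from the Control range into the Trauma range. Ppp1r15a rose by 33.6% in Trauma against Control (log2 fold change 0.42 ± 0.076 SE, limma adjusted p = 0.00753), a call kept under all settings. It fell by 16.8% in Trauma+TGF-β1 against Trauma (log2 fold change -0.27 ± 0.076 SE, limma adjusted p = 0.0414), with 1 library, Trauma+TGF-β1 3, inside the Trauma range. This call was lost after GC correction (log2 fold change -0.15, limma adjusted p = 0.264) and without any 1 of 9 libraries (Control 2 and 4, Trauma+TGF-β1 1, 2 and 4, Trauma 1, 2, 3 and 4), with log2 fold changes from -0.30 to -0.20 and limma adjusted p from 0.0515 to 0.105. Against Control the Trauma+TGF-β1 group was not called (log2 fold change 0.15 ± 0.076 SE, limma adjusted p = 0.195). Ppp1r15b, the constitutive partner subunit, stayed at 14.0 to 16.6 FPKM in all libraries, with log2 fold changes of -0.044, -0.0084 and -0.052 and no call. Exons of Gm26616 on the other strand overlap 11.4% of the exon bases of Ppp1r15b.

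The 5 amino acid transporters all had a negative log2 fold change in Trauma against Control, and 3 of them passed. Slc7a3, a carrier of arginine and lysine, had the largest fall of the members called in this comparison. It lies at chrX:101079210-101086020, minus strand and had 12.5, 13.8, 12.2 and 11.02 FPKM in Control, 9.04, 8.94, 7.29 and 6.85 FPKM in Trauma and 8.29, 8.20, 7.48 and 8.01 FPKM in Trauma+TGF-β1. Both injured groups lay wholly below Control and overlapped each other. Slc7a3 fell by 34.6% in Trauma (log2 fold change -0.61 ± 0.092 SE, limma adjusted p = 0.0024) and fell by 34.3% in Trauma+TGF-β1 (log2 fold change -0.61 ± 0.092 SE, limma adjusted p = 0.00162), both kept under all settings. Between Trauma+TGF-β1 and Trauma its log2 fold change was 0.0055 ± 0.092 SE.

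Slc7a5, the light chain of the carrier of large neutral amino acids Lat1, had 90.2, 91.9, 90.0 and 83.0 FPKM in Control, 76.9, 77.9, 63.7 and 60.7 FPKM in Trauma and 80.2, 81.8, 77.8 and 80.5 FPKM in Trauma+TGF-β1. Trauma 3 and Trauma 4 were lower than Trauma 1 and Trauma 2, and the Trauma+TGF-β1 libraries lay between Control and Trauma with a single Trauma library in their range. Slc7a5 (chr8:121881150-121907694, minus strand) fell by 21.3% in Trauma against Control (log2 fold change -0.34 ± 0.073 SE, limma adjusted p = 0.0167). The call was lost without Trauma 3 (log2 fold change -0.30, limma adjusted p = 0.0514), and in a fit of these 2 groups alone. Trauma+TGF-β1 was called neither against Trauma (log2 fold change 0.21 ± 0.073 SE, limma adjusted p = 0.0788) nor against Control (log2 fold change -0.14 ± 0.073 SE, limma adjusted p = 0.229). Its heavy chain Slc3a2 had 56.3 to 65.7 FPKM over the Control libraries, 52.7 to 58.3 FPKM over the Trauma libraries and 49.6 to 56.7 FPKM with TGF-β1 and was not called, with its lowest limma adjusted p of 0.0564 in Trauma+TGF-β1 against Control.

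Slc7a1, the widespread carrier of arginine and lysine, had 16.6, 18.0, 16.1 and 15.97 FPKM in Control, 15.1, 14.8, 12.4 and 11.7 FPKM in Trauma and 15.2, 14.5, 13.9 and 14.5 FPKM in Trauma+TGF-β1. Trauma lay below Control, with Trauma 3 and Trauma 4 again lowest. Slc7a1 (chr5:148327410-148399904, minus strand) fell by 18.6% in Trauma (log2 fold change -0.30 ± 0.076 SE, limma adjusted p = 0.0424). This call was lost without any 1 of 10 libraries (Control 1, 2, 3 and 4, Trauma+TGF-β1 1, 2, 3 and 4, Trauma 3 and 4), with log2 fold changes from -0.32 to -0.23 and limma adjusted p from 0.0551 to 0.118. It was also lost in a fit of these 2 groups alone, with eBayes without trend and with length correction. The same held without the filter on low values and with scaling to the reads on genes.

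Slc38a2, a carrier of small neutral amino acids known as Snat2, had 23.2, 22.0, 21.3 and 23.1 FPKM in Control, 21.1, 19.9, 20.0 and 19.1 FPKM in Trauma and 21.4, 24.7, 21.4 and 23.4 FPKM in Trauma+TGF-β1. Trauma lay below both other groups, which overlapped. Slc38a2 (chr15:96687392-96699730, minus strand) was the one Atf4-side member called higher in Trauma+TGF-β1 than in Trauma, by 13.6% (log2 fold change 0.18 ± 0.053 SE, limma adjusted p = 0.0425), while Trauma against Control did not pass (log2 fold change -0.15 ± 0.053 SE, limma adjusted p = 0.131). The call was lost after GC correction (log2 fold change 0.10, limma adjusted p = 0.263) and without any 1 of 8 libraries (Control 2 and 4, Trauma+TGF-β1 2 and 4, Trauma 1, 2, 3 and 4), with log2 fold changes from 0.14 to 0.21 and limma adjusted p from 0.0514 to 0.116.

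**Figure D3:**
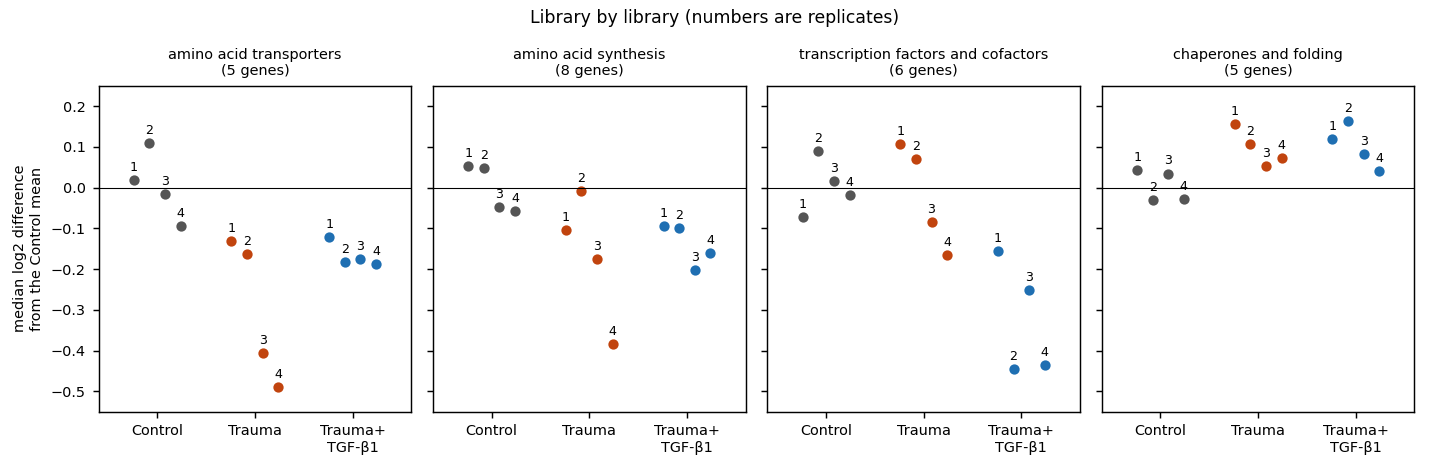
Median log2 difference from the Control mean of 4 groups of members, by library. The y axis is the median over the genes of a group (log2), each point is a library with its replicate number, and the groups are Control, Trauma and Trauma+TGF-β1. The transporters stand at -0.41 and -0.49 in Trauma 3 and Trauma 4 and at -0.13 and -0.16 in Trauma 1 and Trauma 2. The chaperones stand above 0 in all 8 injured libraries, but also in Control 1 (0.043) and Control 3 (0.035). Trauma+TGF-β1 4 (0.040) stands below Control 1.

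The 2 pairs of Trauma libraries also differed over the groups of genes. The median log2 difference of the 5 transporters from the Control mean was -0.13 and -0.16 in Trauma 1 and Trauma 2 and -0.41 and -0.49 in Trauma 3 and Trauma 4. For the 8 genes of amino acid synthesis these values were -0.10, -0.0087, -0.18 and -0.38. In Trauma+TGF-β1 the transporters ranged from -0.19 to -0.12 and the synthesis genes from -0.20 to -0.095. The sources used here name no batch that would set these libraries apart, and the difference was not tested.

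Of the 8 genes of amino acid synthesis and the folate cycle, Mthfd2 alone was called in Trauma against Control. Mthfd2, a mitochondrial folate enzyme with little activity in most adult tissues, lies at chr6:83305691-83325908, minus strand and had 13.4, 11.9, 10.8 and 11.9 FPKM in Control, 9.14, 8.12, 8.05 and 7.30 FPKM in Trauma and 9.71, 9.98, 8.74 and 8.01 FPKM in Trauma+TGF-β1. Both injured groups lay below Control without overlap. Mthfd2 fell by 31.3% in Trauma (log2 fold change -0.54 ± 0.088 SE, limma adjusted p = 0.00384) and fell by 23.2% in Trauma+TGF-β1 (log2 fold change -0.38 ± 0.088 SE, limma adjusted p = 0.0134), and both calls were kept throughout. Trauma+TGF-β1 against Trauma was not called (log2 fold change 0.16 ± 0.088 SE, limma adjusted p = 0.253).

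Phgdh, the first enzyme of serine synthesis, had 33.6, 39.3, 33.0 and 31.1 FPKM in Control, 34.4, 32.1, 34.8 and 33.4 FPKM in Trauma and 29.9, 26.01, 29.0 and 28.2 FPKM in Trauma+TGF-β1. Control and Trauma overlapped, and the Trauma+TGF-β1 values were under both. Phgdh (chr3:98313170-98339990, minus strand) fell by 15.9% against Trauma (log2 fold change -0.25 ± 0.066 SE, limma adjusted p = 0.0323) and fell by 16.4% against Control (log2 fold change -0.26 ± 0.066 SE, limma adjusted p = 0.0219). After GC correction neither call was kept (log2 fold changes of -0.10, limma adjusted p = 0.394 and -0.18, limma adjusted p = 0.0886). The call against Trauma was also lost without any 1 of 6 libraries (Trauma+TGF-β1 2 and 4, Trauma 1, 2, 3 and 4), with log2 fold changes from -0.27 to -0.21 and limma adjusted p from 0.0548 to 0.0955. That against Control was lost without any 1 of 2 libraries (Trauma+TGF-β1 2 and 4), with log2 fold changes from -0.26 to -0.22 and limma adjusted p from 0.0509 to 0.0672. The next enzymes of the pathway were not called. Psat1 kept to 32.2 to 35.4 FPKM in all libraries, with log2 fold changes of 0.050, -0.062 and -0.012. Psph had 9.30 to 10.4 FPKM over the Control libraries, 7.15 to 10.6 FPKM over the Trauma libraries and 7.71 to 9.19 FPKM with TGF-β1. Exons of Cct6a on the other strand overlap 10.4% of those of Psph.

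Asns, which makes asparagine and is a classic target of Atf4, had 74.9 to 93.6 FPKM over the Control libraries, 62.4 to 74.5 FPKM over the Trauma libraries and 67.9 to 76.6 FPKM with TGF-β1. All Trauma libraries were below all Control libraries, but the difference did not pass (log2 fold change -0.25 ± 0.080 SE, limma adjusted p = 0.0965). Shmt2, the mitochondrial enzyme that turns serine into glycine, stayed at 18.1 to 21.6 FPKM with no call. The proline enzymes Aldh18a1 and Pycr1 were not called either. For Aldh18a1 the Trauma libraries split again, at 22.6, 22.4, 17.5 and 15.8 FPKM, beside 19.5 to 22.2 FPKM for Control and 18.5 to 22.3 FPKM with TGF-β1. Pycr1 had 1.79 to 2.08 FPKM over the Control libraries, 1.47 to 1.84 FPKM over the Trauma libraries and 1.91 to 2.31 FPKM with TGF-β1, each of the last above each of Trauma (log2 fold change 0.29 ± 0.10 SE, limma adjusted p = 0.0835).

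Chac1, an enzyme that breaks down glutathione and is raised by Atf4 and Chop, was highest in the Control libraries and lowest in those of Trauma+TGF-β1. The gene, at chr2:119351229-119354381, plus strand, had 12.0, 12.1, 12.4 and 13.6 FPKM in Control, 11.3, 11.4, 9.78 and 9.99 FPKM in Trauma and 8.34, 8.57, 9.66 and 7.97 FPKM in Trauma+TGF-β1. None of the groups overlapped with another. Chac1 fell by 18.4% in Trauma+TGF-β1 against Trauma (log2 fold change -0.29 ± 0.072 SE, limma adjusted p = 0.0243) and fell by 30.4% against Control (log2 fold change -0.52 ± 0.072 SE, limma adjusted p = 0.000844), whereas Trauma against Control did not pass (log2 fold change -0.23 ± 0.072 SE, limma adjusted p = 0.0909). The call against Control was kept under all settings. The call against Trauma was lost after GC correction (log2 fold change -0.14, limma adjusted p = 0.316) and without any 1 of 5 libraries (Trauma+TGF-β1 1, 2 and 4, Trauma 1 and 2), with log2 fold changes from -0.29 to -0.26 and limma adjusted p from 0.0526 to 0.0722.

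The other targets were not called. Trib3, a pseudokinase that restrains the pathway, had 0.865, 0.844, 1.66 and 0.970 FPKM in Trauma+TGF-β1, where the third library stood apart, beside 1.47 to 1.80 FPKM for Control and 0.944 to 1.72 FPKM for Trauma (log2 fold change -0.57 ± 0.22 SE, limma adjusted p = 0.0986 for Trauma+TGF-β1 against Control). Sesn2, a leucine sensor that curbs mTORC1, had 13.1 to 14.8 FPKM over the Control libraries, 13.2 to 14.8 FPKM over the Trauma libraries and 11.3 to 13.8 FPKM with TGF-β1. Stc2, a secreted glycoprotein raised by ER stress, had 2.54 to 3.65 FPKM in all libraries with overlapping groups.

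**Figure D4:**
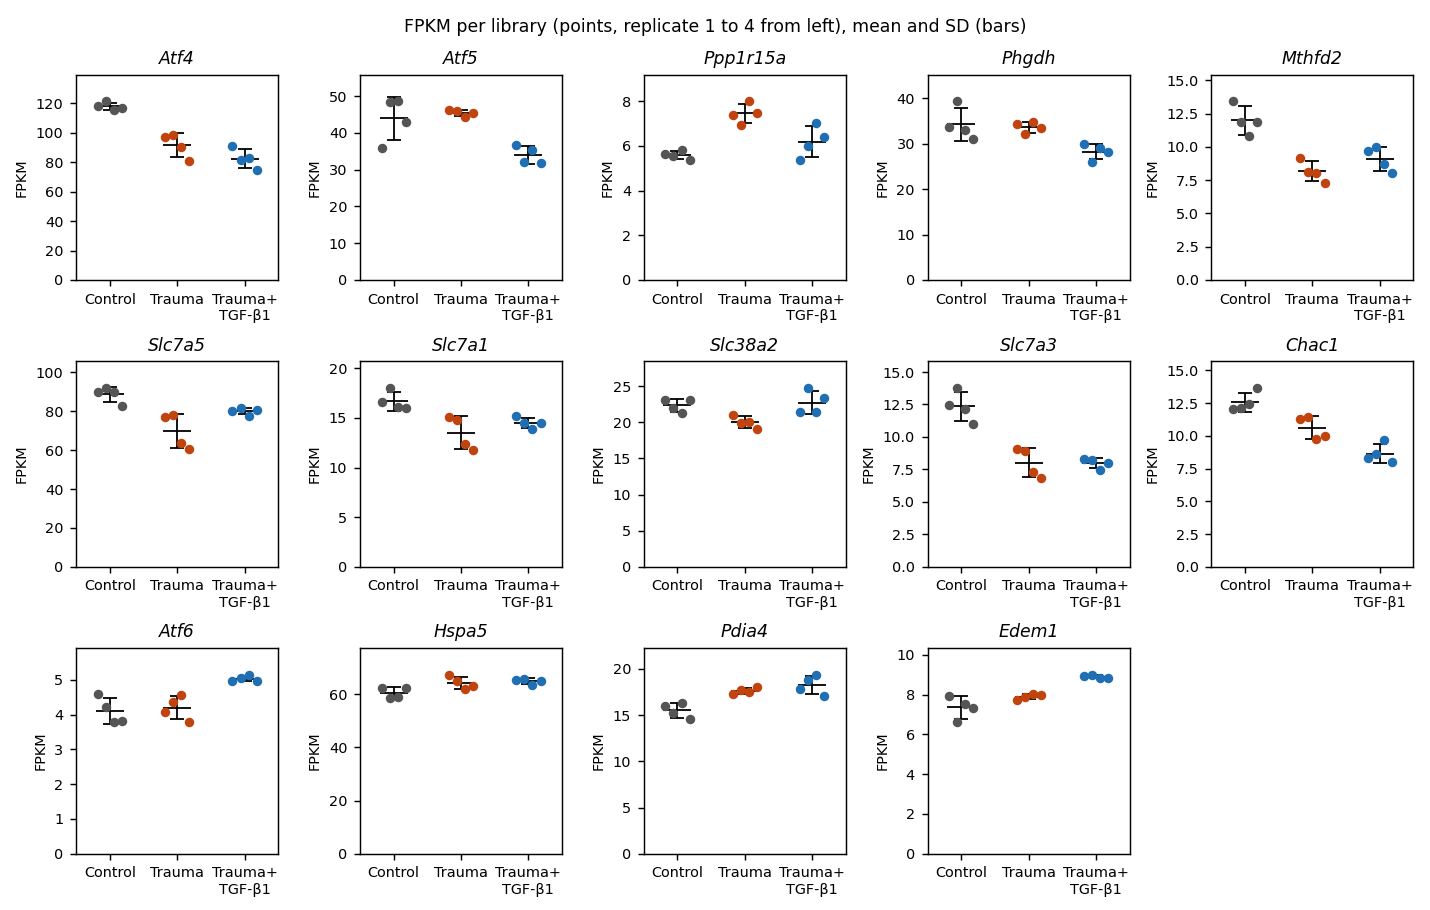
FPKM of the 14 members called in at least 1 comparison. Each panel is a gene, the y axis is FPKM from 0, the points are libraries (replicate 1 to 4 from the left) and the bars are the mean ± SD of 4 libraries. Atf4 stands at 115.6 to 121.4 FPKM in Control against 74.4 to 98.2 in the injured groups, and Edem1 at 8.83 to 8.99 in Trauma+TGF-β1 against 6.61 to 8.04 in the others.

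On the ER side, all 6 calls, of 4 members, were increases, in 3 comparisons that share libraries. Over all genes 3.5%, 4.64% and 6.85% were called higher in these comparisons. After GC correction 0, 0 and 2 members were called, the 2 being Pdia4 and Edem1 against Control. Hspa5, or BiP, the main chaperone of the ER, had 62.3, 58.7, 59.1 and 62.2 FPKM in Control, 67.2, 64.8, 62.1 and 63.2 FPKM in Trauma and 65.3, 65.9, 63.5 and 65.1 FPKM in Trauma+TGF-β1. Trauma and Trauma+TGF-β1 overlapped, and the Trauma+TGF-β1 values were all over the Control values. Hspa5 (chr2:34771970-34777547, plus strand) rose by 8.16% in Trauma+TGF-β1 against Control (log2 fold change 0.11 ± 0.034 SE, limma adjusted p = 0.0399). Neither Trauma against Control (log2 fold change 0.095 ± 0.034 SE, limma adjusted p = 0.135) nor Trauma+TGF-β1 against Trauma (log2 fold change 0.018 ± 0.034 SE, limma adjusted p = 0.773) passed. The one call had a log2 fold change of 0.22 after quantile normalization (limma adjusted p = 0.00419). It was lost after GC correction (log2 fold change 0.028, limma adjusted p = 0.656), with voom on the recovered reads (0.10, limma adjusted p = 0.0787), and without any 1 of 7 libraries (Control 2 and 3, Trauma+TGF-β1 1, 2 and 4, Trauma 2 and 4), with log2 fold changes from 0.097 to 0.11 and limma adjusted p from 0.052 to 0.108.

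Pdia4, which forms and reshuffles disulfide bonds, had 15.98, 15.2, 16.3 and 14.6 FPKM in Control, 17.3, 17.7, 17.5 and 18.1 FPKM in Trauma and 17.8, 18.8, 19.3 and 17.1 FPKM in Trauma+TGF-β1. Every library of both injured groups exceeded every Control library. Pdia4 (chr6:47796141-47813430, minus strand) rose by 14.5% in Trauma (log2 fold change 0.19 ± 0.048 SE, limma adjusted p = 0.0353) and by 18.6% in Trauma+TGF-β1 (log2 fold change 0.25 ± 0.048 SE, limma adjusted p = 0.00606), both against Control. The call in Trauma+TGF-β1 was kept throughout. That in Trauma was lost after GC correction (log2 fold change 0.16, limma adjusted p = 0.0608), with voom (0.19, limma adjusted p = 0.0789), and without any 1 of 6 libraries (Control 2 and 4, Trauma 1, 2, 3 and 4), with log2 fold changes from 0.17 to 0.21 and limma adjusted p from 0.0563 to 0.105.

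Edem1, which picks out misfolded glycoproteins for degradation, had 7.96, 6.61, 7.54 and 7.33 FPKM in Control, 7.72, 7.89, 8.04 and 7.99 FPKM in Trauma and 8.95, 8.99, 8.83 and 8.84 FPKM in Trauma+TGF-β1. The Trauma+TGF-β1 libraries lay within a narrow range above all the others. Edem1 (chr6:108828641-108859356, plus strand) rose by 22.0% against Control (log2 fold change 0.29 ± 0.054 SE, limma adjusted p = 0.0049), a call kept throughout. Against Trauma the difference did not pass (log2 fold change 0.17 ± 0.054 SE, limma adjusted p = 0.0559). Without Control 1 it passed at the same fold (limma adjusted p = 0.0285), and the log2 fold change against Control was 0.33 (limma adjusted p = 0.00127).

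Atf6, the ER sensor that is cut to release a transcription factor, had 4.58, 4.22, 3.79 and 3.82 FPKM in Control, 4.08, 4.37, 4.56 and 3.79 FPKM in Trauma and 4.97, 5.05, 5.13 and 4.97 FPKM in Trauma+TGF-β1. All Trauma+TGF-β1 libraries exceeded all libraries of the other groups. Atf6 (chr1:170704674-170867771, minus strand) rose by 19.8% against Trauma (log2 fold change 0.26 ± 0.074 SE, limma adjusted p = 0.04) and by 23.5% against Control (log2 fold change 0.30 ± 0.074 SE, limma adjusted p = 0.0172). Neither call was kept after GC correction (log2 fold changes of 0.20, limma adjusted p = 0.12 and 0.22, limma adjusted p = 0.055). The call against Trauma was lost without any 1 of 7 libraries (Trauma+TGF-β1 1, 2, 3 and 4, Trauma 1, 2 and 4), with log2 fold changes from 0.22 to 0.28 and limma adjusted p from 0.0659 to 0.109. The call against Control was lost without Control 3 (log2 fold change 0.27, limma adjusted p = 0.0545).

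The other sensor branch was not called. Xbp1, whose RNA is spliced by Ire1, had 22.6, 21.7, 21.5 and 21.8 FPKM in Control, 21.1, 22.2, 20.3 and 18.6 FPKM in Trauma and 20.5, 19.9, 20.9 and 21.0 FPKM in Trauma+TGF-β1. Its Trauma+TGF-β1 libraries were all below its Control libraries, yet the difference was small and did not pass (log2 fold change -0.076 ± 0.048 SE, limma adjusted p = 0.313). Gene totals do not separate spliced from unspliced Xbp1. Ern1, which encodes Ire1, had 0.967 to 1.80 FPKM over all libraries with overlapping groups.

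Of the remaining chaperones, Calr (134 to 148 FPKM) and Canx (76.2 to 88.7 FPKM), the lectins that hold glycoproteins during folding, were not called. Canx was higher in each Trauma+TGF-β1 library than in each Trauma library (log2 fold change 0.11 ± 0.036 SE, limma adjusted p = 0.066). Without Control 1, Canx passed against Trauma (limma adjusted p = 0.0368) and against Control (log2 fold change 0.10, limma adjusted p = 0.0475). In both comparisons its fold change had the other sign under 2 of the 27 alternatives. The GC content of Canx was 42.2%, beside a median of 49.6% over all genes tested. Sdf2l1, a partner of ER chaperones, had 1.99, 5.04, 4.65 and 3.51 FPKM in the Control libraries, with Control 1 lowest, 4.45 to 5.94 FPKM over the Trauma libraries and 3.50 to 5.04 FPKM with TGF-β1. Its log2 fold change from Control was 0.48 in Trauma and 0.24 in Trauma+TGF-β1, and without Control 1 it was 0.21 (limma adjusted p = 0.488) and -0.029 (limma adjusted p = 0.916). Herpud1, a part of the degradation machinery, had 22.1 to 28.3 FPKM over the Control libraries, 19.7 to 21.7 FPKM over the Trauma libraries and 21.1 to 22.8 FPKM with TGF-β1. Its Trauma libraries lay below its Control libraries without passing (log2 fold change -0.20 ± 0.067 SE, limma adjusted p = 0.116, and -0.13, limma adjusted p = 0.147 without Control 1).

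Further genes of the same pathways were taken from lists, which were written with earlier results of these data known. Their counts in the main fit stand beside the 5.82%, 12.3% and 16.3% of all genes called in the 3 comparisons. The medians over all genes were -0.0025, 0.0052 and 0.0031. After GC correction 1256, 806 and 1999 of all 14699 genes with GC content were called. Voom called 1152, 2554 and 2919 of 15016. Counts at an unadjusted p were not made over all genes. Those of the lists here and below therefore have no share beside them. Of 20 tested among 21 other Atf4 targets, 4 were lower and 0 higher in Trauma against Control (20%), with 11 at an unadjusted p under 0.05 and 4 called by voom. The 4 lower genes were Aldh1l2, of mitochondrial folate metabolism (log2 fold change -0.30 ± 0.068 SE, adjusted p = 0.026), the aspartate enzyme Got1 (-0.20 ± 0.047 SE, adjusted p = 0.0282), the growth factor Vegfa (-0.31 ± 0.074 SE, adjusted p = 0.0303) and the carrier Slc1a4 (-0.25 ± 0.062 SE, adjusted p = 0.0392). In Trauma+TGF-β1 against Trauma 4 were lower and 1 higher (25% of the list). The 4 with the smallest p were Ddit4, an inhibitor of mTORC1 (-0.55 ± 0.093 SE, adjusted p = 0.00762), the cystine carrier Slc7a11 (-0.44 ± 0.0999 SE, adjusted p = 0.018), the factor Jdp2 (-0.34 ± 0.078 SE, adjusted p = 0.0199) and Eif4ebp1, a brake on translation (-0.39 ± 0.092 SE, adjusted p = 0.0215). Against Control 8 were lower and 1 higher (45%), led by Eif4ebp1 (-0.70 ± 0.092 SE, adjusted p = 0.000669) and followed by Ddit4 (-0.59 ± 0.093 SE, adjusted p = 0.00198), Jdp2 (-0.49 ± 0.078 SE, adjusted p = 0.00221) and Got1 (-0.27 ± 0.047 SE, adjusted p = 0.00331). The list's medians were -0.15, -0.0088 and -0.13. After GC correction 7, 5 and 9 were called, and of the genes named here the call of Jdp2 against Trauma was lost (-0.20, adjusted p = 0.114). The named calls against Control were kept without each library, as were those of Ddit4 and Slc7a11 against Trauma. The list held 0 calls in Trauma against Control without any 1 of Control 3, Trauma 3 and Trauma 4, 1 without Trauma 2 and 2 without Control 2 or Control 4. Against Trauma it held 2 without Trauma+TGF-β1 2 or Trauma 4 and 3 without Trauma+TGF-β1 4 or Trauma 2. The calls of Jdp2 and Eif4ebp1 against Trauma were lost without any 1 of 4 libraries (Trauma+TGF-β1 2 and 4, Trauma 2 and 4; adjusted p up to 0.0628) and any 1 of 3 (Trauma+TGF-β1 2, Trauma 1 and 4; adjusted p up to 0.0668).

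The 20 cytosolic tRNA synthetases, which charge tRNA and include several Atf4 targets, were all tested. In Trauma against Control 4 were lower and 0 higher (20%), with 7 at an unadjusted p under 0.05 and 6 called by voom. They were Cars (-0.29 ± 0.051 SE, adjusted p = 0.00575), Nars (-0.24 ± 0.047 SE, adjusted p = 0.0122), Yars (-0.18 ± 0.039 SE, adjusted p = 0.0204) and Aars (-0.21 ± 0.055 SE, adjusted p = 0.0417), given as log2 fold changes from limma. Trauma+TGF-β1 against Trauma gave 2 higher, Rars (0.19 ± 0.039 SE, adjusted p = 0.0138) and Iars (0.21 ± 0.051 SE, adjusted p = 0.0253), and 0 lower, with 7 at an unadjusted p under 0.05 and 2 called by voom. These 2 calls (10% of the list) are no larger a share than that of all genes, and after GC correction 0 were kept (Rars at 0.13, adjusted p = 0.0688 and Iars at 0.18, adjusted p = 0.0679). Against Control 6 were lower and 1 higher (35%), with Nars (-0.28 ± 0.047 SE, adjusted p = 0.00313), Mars (-0.21 ± 0.039 SE, adjusted p = 0.00472), Cars (-0.25 ± 0.051 SE, adjusted p = 0.00707) and Aars (-0.26 ± 0.055 SE, adjusted p = 0.00884) in front. The medians were -0.053, -0.011 and -0.063. After GC correction 6 were lower in Trauma against Control and 5 in Trauma+TGF-β1 against Control, with Aars no longer called in the latter (-0.19, adjusted p = 0.076). The named calls against Control in Trauma+TGF-β1 were kept without each library, and so were those of Cars and Nars in Trauma and of Rars against Trauma. Yars in Trauma was lost without any 1 of 4 libraries (Control 2 and 3, Trauma 3 and 4; adjusted p up to 0.0715), Aars in Trauma without any 1 of 9 (all but Control 4 and Trauma 1 and 2; adjusted p up to 0.124) and Iars against Trauma without any 1 of 5 (Trauma+TGF-β1 1, 2 and 4, Trauma 3 and 4; adjusted p up to 0.0722).

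Of 13 genes for eIF2, its exchange factor and other regulators, 0 were called by limma in each comparison. At an unadjusted p under 0.05 there were 2, 4 and 2 in the order above, and voom called 1, 0 and 0. Against Trauma there were 2 calls without Trauma+TGF-β1 3 and 1 without Control 1 or Control 4, and against Control 2 without Control 1 and 1 without Trauma 2. Among 32 further ER folding and degradation genes, 31 were tested. In Trauma against Control 0 were called, with 4 at an unadjusted p under 0.05 and 0 called by voom. In Trauma+TGF-β1 against Trauma 3 were higher and 2 lower, which is 16.1% of the list beside 12.3% of all genes. Those with the smallest p were the co-chaperones Dnajb11, lower (-0.23 ± 0.043 SE, adjusted p = 0.0099), and Dnajc3, higher (0.30 ± 0.062 SE, adjusted p = 0.0134), Sel1l of the degradation complex, higher (0.14 ± 0.032 SE, adjusted p = 0.0178), and the chaperone Hsp90b1, higher (0.14 ± 0.038 SE, adjusted p = 0.0337). Against Control 5 were higher and 1 lower (19.4% beside 16.3% of all genes), with Dnajc3 (0.45 ± 0.062 SE, adjusted p = 0.000844), Hsp90b1 (0.18 ± 0.038 SE, adjusted p = 0.00922) and Pdia3 (0.24 ± 0.058 SE, adjusted p = 0.0182) higher and the ubiquitin ligase Syvn1 lower (-0.23 ± 0.056 SE, adjusted p = 0.0168). The medians were 0.038, 0.022 and 0.056. After GC correction 1 call was left against Trauma (Dnajb11) and 2 against Control (Dnajc3, higher, and Syvn1, lower), with Hsp90b1 at 0.025 (adjusted p = 0.82) and 0.050 (adjusted p = 0.554). Leaving out a library gave 2 to 7 calls against Trauma (2 without Trauma+TGF-β1 2 or Trauma 2, and 3 without Trauma+TGF-β1 4, Trauma 3 or Trauma 4) and 3 to 8 against Control (3 without Control 2, Trauma+TGF-β1 2 or Trauma+TGF-β1 4). Dnajb11 and Dnajc3 against Trauma and Dnajc3 and Hsp90b1 against Control were kept without each library.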

How the data were processed

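Poly(A) RNA of 12 libraries was sequenced, 4 each of Control, Trauma and Trauma+TGF-β1 as the sample titles give them. The authors aligned reads with HISAT2 2.0.5 to mm10, counted reads per gene and deposited FPKM for 55901 genes with the length of each gene in bases (other). The methods text speaks of fewer samples than were deposited. FPKM times length fell on whole steps of a library for 100% of genes (tolerance 0.01), which returned the reads of each gene, and the steps showed that the deposited FPKM already carry a scaling between libraries. Values were rescaled by median-of-ratios factors over the tested genes (0.999 to 1.011), 0.1 was added and log2 values were taken, so that fold changes of low genes are understated. The 15016 genes with a mean of at least 0.5 FPKM were fitted in limma 3.58.1 (R 4.3.3; lmFit, contrasts, eBayes with trend, all 12 libraries, no covariates), with Benjamini-Hochberg adjustment over all genes of a comparison and a threshold of 0.05. The fit was tested on simulated data.

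Every member was named, values per library were given for members called at least once and for Atf4, Ddit3, Hspa5, Xbp1 and the eIF2α kinases, and up to 4 called genes with the smallest p were named from each further list. Members, lists and tests were chosen with earlier results of these data known. Alternatives were other pseudocounts, filters and scalings, a fit of 2 groups, eBayes without trend, corrections for length and GC content, the replicate number as a block, voom on the recovered reads, and each library left out. Gene coordinates are those of the file, and 99.5% of 55154 genes shared with GENCODE M21 (GRCm38) had the same ones. Python 3.11.15, pandas 2.3.3, numpy 2.4.6, scipy 1.17.1 and matplotlib 3.10.9 were used.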

Additional observations from a re-analysis of the deposited data

Results flagged for a closer look

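Of 117 groups of 4 values (39 members in 3 groups), 2 held a library that stood apart by Dixon's criterion, at the 95% level for 4 values, where chance gives about 1 in 20 groups, or 5.85. Trib3 had 1.66 FPKM in Trauma+TGF-β1 3 (57 reads), against 0.844 to 0.970 FPKM in the other Trauma+TGF-β1 libraries. Eif2ak2 had 1.43 FPKM in Trauma+TGF-β1 1 (111 reads), against 1.196 to 1.203 FPKM in the other Trauma+TGF-β1 libraries. Neither gene was called by limma in a comparison of all libraries, and voom on the recovered reads called Eif2ak2 in both comparisons with Control.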

How the results depend on the processing

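Of the 23 calls of single members, 11 were kept under all 27 alternatives, 12 were lost under at least 1, and 0 changed sign. Of 621 values, 491 stayed on the same side of the threshold. The cause of each change below was not tested.

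In Trauma against Control the single ER-side call became 0 in a fit of the 2 groups, with eBayes without trend, with GC correction, with length correction (also with the block), without the filter and with voom, and 2 with scaling to the reads on genes, a setting chosen after seeing the data. The 5 Atf4-side calls in Trauma+TGF-β1 against Trauma became 3 in a fit of the 2 groups, 2 with eBayes without trend and with GC correction (also with the block), and 1 with length correction (also with the block) and without the filter. There the single ER-side call became 0 with GC or length correction (also with the block) and without the filter, 2 in a fit of the 2 groups, with a filter at 1 FPKM and with voom, and 3 with quantile normalization, where the median moved to 0.11. The Atf4-side calls in Trauma+TGF-β1 against Control became 10 with voom, and their median -0.10 with GC correction (also with the block), -0.11 with scaling to the reads on genes and -0.066 with quantile normalization. The ER-side calls became 2 with GC correction (also with the block) and with length correction and block, and their median 0.049 with GC correction (also with the block) and 0.21 with quantile normalization.

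Without each library in turn, the calls in Trauma against Control ranged from 4 to 6 on the Atf4 side (median -0.12 to -0.049) and from 0 to 1 on the ER side (median 0.029 to 0.089). They ranged in Trauma+TGF-β1 against Trauma from 1 to 5 (median -0.059 to 0.028) and from 0 to 3 (median 0.039 to 0.086). Against Control they ranged from 4 to 8 (median -0.16 to -0.12) and from 2 to 5 (median 0.083 to 0.14). Of the 94 values of members that were not called, 31 had the other sign under at least 1 alternative. Among those of Atf4, Ddit3, Hspa5, Xbp1 and the eIF2α kinases, the log2 fold change changed sign for Ddit3 in Trauma against Control (0.0014 with scaling to the reads on genes, and -0.093 to 0.11 without each library) and for Eif2ak3 (-0.0060 to 0.097, and -0.039 to 0.095 in Trauma+TGF-β1 against Trauma). The same held in Trauma+TGF-β1 against Trauma for Hspa5 (-0.054 with GC correction, also with the block) and Xbp1 (-0.038 to 0.045), and against Control for Eif2ak1 (-0.0066 with GC correction, also with the block, and -0.0050 to 0.057).

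Same-numbered libraries did not deviate together (correlations -0.0088 to 0.076), so the replicate number was not taken to pair them. With the replicate block, 2 Atf4-side and 0 ER-side members were called in Trauma+TGF-β1 against Trauma, 7 and 1 in Trauma against Control, and 8 and 4 against Control.

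Over all genes, a fit of 2 groups called 529 genes in Trauma against Control and 1514 in Trauma+TGF-β1 against Control, and no filter called 562, 990 and 1629 in the 3 comparisons. GC correction called 806 in Trauma+TGF-β1 against Trauma (701 with the block, which called 1354 in Trauma against Control), and length correction with block 868. Voom called 1152, 2554 and 2919 in the 3 comparisons. Leaving out a library gave as few as 464 (without Trauma 4), 642 (without Trauma+TGF-β1 2, 173 higher and 469 lower) and 1438 (without Trauma+TGF-β1 2). The split of higher and lower moved by over 10 points to 485 and 771 with GC correction (492 and 862 with the block), 468 and 520 with length correction (442 and 491 with the block) and 655 and 223 with scaling to the reads on genes in Trauma against Control. In Trauma+TGF-β1 against Control it moved to 764 and 1685 with length correction (732 and 1641 with the block), 1340 and 1095 with scaling to the reads on genes and 1134 and 918 with quantile normalization, which gave 1125 and 927 against Trauma. Fgf21, Nupr1 and Trib3 rested on at most 65 reads per library, which limits them.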
